A study of Drosophila melanogaster with 6 samples.

Results

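The bithorax complex window comprised every called peak of 4 ChIP-seq peak lists whose summit lay on chromosome arm 3R from 12400000 up to, but not including, 12900000 in the lists' own coordinates (Release 5 of the Drosophila melanogaster genome, build dm3). It held 495 of the 12061 peaks of the lists, namely 4 of 1916 for Jarid2 A, 2 of 1055 for Jarid2 B, 210 of 5173 for Pcl A and 279 of 3917 for Pcl B. The study purified either Jarid2 or Polycomblike (Pcl) through a BioTAP tag, an affinity tag for a tandem purification (IgG agarose, then streptavidin), from formaldehyde-fixed chromatin of embryos collected 12 to 24 h after laying. There were 2 libraries, A and B, for each tagged protein and 1 input library for each, and the peaks of each purified library were listed separately. The strain, the promoter that drove the tagged proteins and any endogenous protein left in the embryos are not given in the sources used here, nor is it stated whether A and B came from separate collections of embryos. Read depth is unknown, since the lists hold no read totals, and the lists of each protein carry a sequencing lane of their own, so protein and lane cannot be told apart.

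Polycomb repressive complex 2 methylates histone H3 at a lysine in chromatin that is kept silent, and Jarid2 and Pcl are accessory subunits found in different variants of it. In Drosophila the bithorax complex is the classic target of Polycomb repression. Its Hox genes, Ubx, abd-A and Abd-B, give the segments of the posterior thorax and the abdomen their identity, and long intergenic regulatory stretches between them carry Polycomb response elements, the DNA elements that recruit Polycomb proteins. In a RefSeq gene table of Release 6, all 3 Hox genes were matched by symbol on 3R, in the order Ubx, abd-A and Abd-B. Of the 17 gene entries from the first to the last of them, 6 were protein coding, 8 were long noncoding RNAs (among them lncRNA:bxd, lncRNA:iab4 and lncRNA:iab8) and 2 were microRNAs, mir-iab-4 and mir-iab-8. The neighbours in that table were modSP on the Ubx side and VhaM9.7-d on the Abd-B side. That table has other coordinates than the peak lists, so the name of the window is background knowledge and no peak is assigned to a gene.

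Pcl peaks covered far more of the window than Jarid2 peaks. Of the 500 kb, Pcl A peaks covered 271 kb and Pcl B peaks 176 kb, while Jarid2 A peaks covered 1.02 kb and Jarid2 B peaks 0.614 kb. As a share of the window these lengths came to 54.3% and 35.1% for Pcl and to 0.204% and 0.123% for Jarid2. The mean covered length was 224 kb ± 67.7 (SD, n = 2) for Pcl and 0.818 kb ± 0.288 (SD, n = 2) for Jarid2. Both Pcl values lay above both Jarid2 values, but with 2 libraries a protein an exact two-sided permutation test cannot give a p below 0.333, which was the p obtained. Since the window was chosen with earlier results of these data known, these values are a description.

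Pcl peaks were denser in the window than outside it, and Jarid2 peaks were not. Pcl A had 42.0 peaks per 100 kb in the window and 4.18 per 100 kb on the remainder of the 6 main arms (the X and the large autosomal arms with chromosome 4). For Pcl B the densities were 55.8 and 3.05 peaks per 100 kb. Jarid2 A had 0.800 peaks per 100 kb in the window against 1.59 elsewhere, and Jarid2 B 0.400 against 0.883, so both Jarid2 lists were sparser in the window than outside it, on 4 and 2 peaks. No test was run on these densities, because peaks of 1 library are not replicates.

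**Figure D1:**
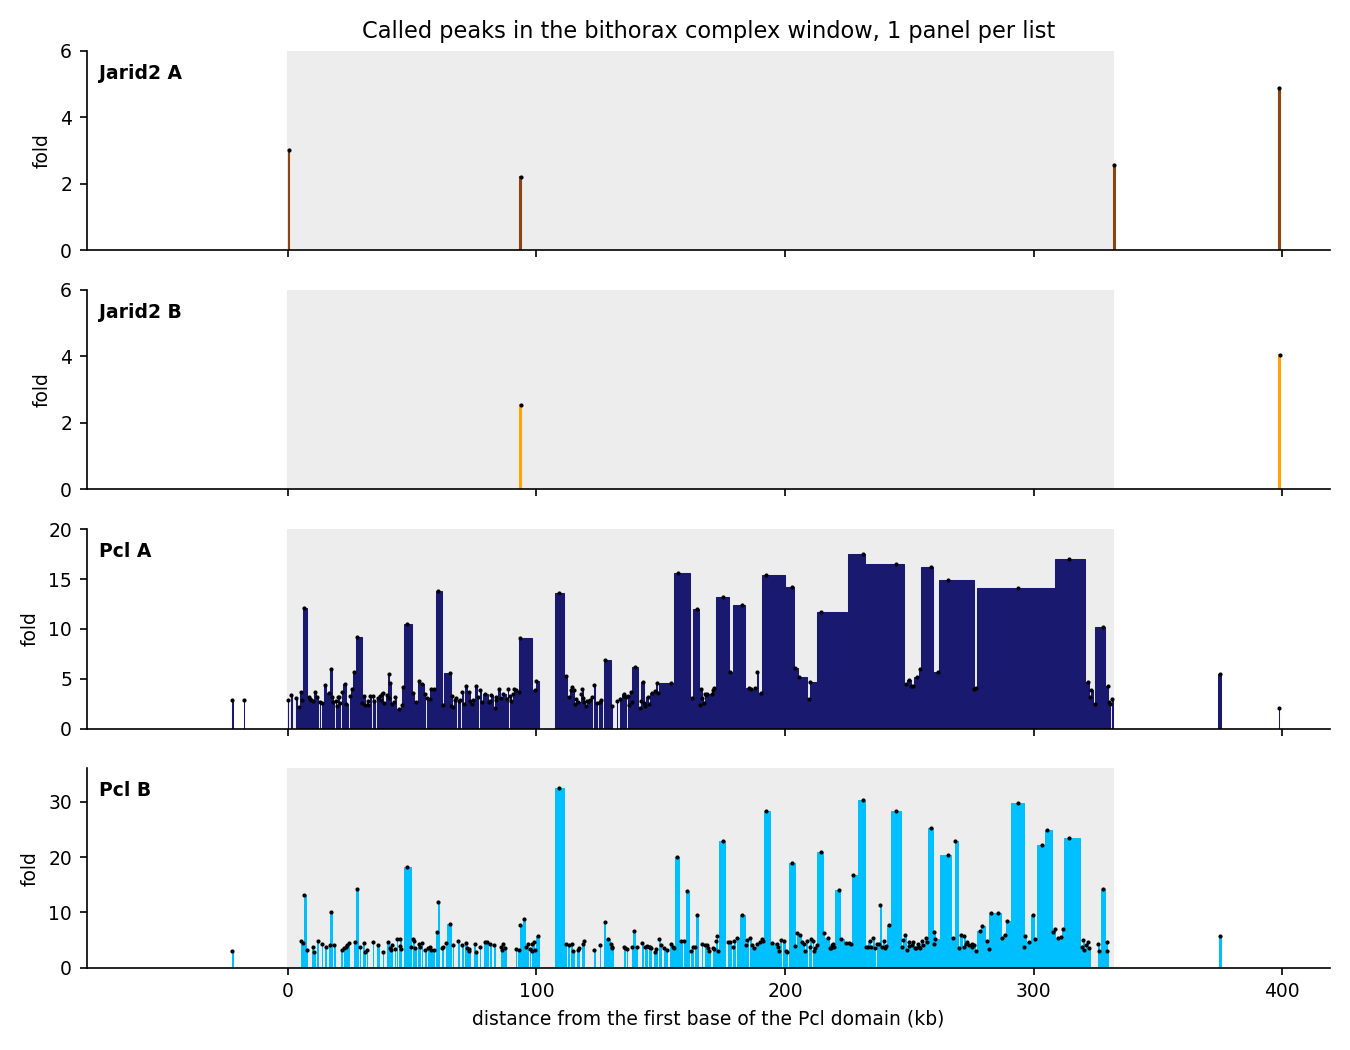
Peaks of the window in each list, drawn as bars from peak start to peak end (x axis, kb from the first base of the Pcl domain, which is shaded) with the authors' fold enrichment as height (y axis, a linear ratio with its own scale in each list) and the summit as a dot. The 4 Jarid2 A and 2 Jarid2 B peaks stand at or beyond the edges of the domain and at 1 place inside it, while 206 of 210 Pcl A and 277 of 279 Pcl B peaks lie in the domain.

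Pcl peaks formed 1 long domain in the window. Peaks were joined into chains across gaps of up to 10 kb between neighbours. A domain was defined as the chain reaching into the window with the most bases under Pcl peaks. With both Pcl lists together it ran from 12480919 to 12812631, a length of 332 kb, of which 83.5% lay under a peak of either list. In Pcl A alone the domain was the same, and its peaks covered 81.2% of it. In Pcl B alone it ran from 12486267 to 12810709, a length of 324 kb, with 53.8% covered. The lists thus placed the start 5348 bp apart and the end 1922 bp apart, with Pcl A reaching further on both sides.

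The peaks at the ends were weak. The authors' fold enrichment, the ratio of signal to background at a summit as their peak caller gave it, was 2.87 at the first Pcl A peak of the domain (12480919 to 12481158) and 2.99 at the last (12812388 to 12812631). At the first Pcl B peak of the domain (12486267 to 12486462) it was 4.84, and at the last (12810559 to 12810709) it was 3.06. The strong sites nearest the ends lay only a few kb inside. A peak with its summit at 12487617 had a fold of 12.1 in Pcl A and, 12 bp away, of 13.2 in Pcl B. At the other end the summits were at 12808836 in Pcl A, with a fold of 10.2, and at 12808860 in Pcl B, with a fold of 14.2. In both lists a peak over a fold of 10 thus stood within 6.70 kb of each border of the domain, with weaker peaks between it and the border.

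Outside the domain the window was almost free of Pcl. The 80.9 kb before it held 2 Pcl A peaks and 1 Pcl B peak, and the 87.4 kb after it held 2 and 1. Before the domain, Pcl A called a peak at 12458365 to 12458759, with a fold of 2.90, which contained a Pcl B peak with a fold of 3.07. A further Pcl A peak at 12463217 to 12463420, with a fold of 2.85, had no counterpart in Pcl B. Beyond the end both lists called an isolated site, at 12855185 to 12856325 in Pcl A with a fold of 5.50 and at 12855296 to 12856087 in Pcl B with a fold of 5.79, with summits 91 bp apart. Between the domain and this site, 42.6 kb held no Pcl A peak and 44.6 kb no Pcl B peak. The last Pcl A peak of the window, at 12879568 to 12879729, had a fold of 2.04 and no Pcl B counterpart.

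The nearest Pcl peaks beyond the limits of the window were far away, and Jarid2 peaks were nearer. The last Pcl A summit before the window lay 146 kb from its lower limit and the first one after it 476 kb from its upper limit. For Pcl B these distances were 147 kb and 266 kb. Jarid2 A had its nearest summits outside at 21.1 kb below and 44.7 kb above the limits, and Jarid2 B at 71.5 kb and 44.8 kb. The outermost Pcl summits inside lay 58.5 kb (Pcl A) and 58.6 kb (Pcl B) from the lower limit and 20.3 kb and 44.3 kb from the upper one. Moving either limit of the window by 10 kb would therefore change no Pcl count, and counting every peak that overlapped the window gave the same 4, 2, 210 and 279 peaks.

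Inside the domain the longest stretch without a Pcl peak ran from 12582097 to 12588233, a length of 6137 bp. It was the only gap of at least 2 kb in the lists together and in Pcl A, where it measured 6154 bp. In Pcl B it measured 6385 bp and was again the longest, but that list had 12 gaps of at least 2 kb. The edges of the gap were unlike each other. Before it stood a Pcl A peak with a fold of 4.76 and a Pcl B peak with a fold of 5.68. Directly after it began the peak with the highest Pcl B fold of the window, 32.4 (12588234 to 12592148, summit at 12589935), the second highest of that whole list. Pcl A called the same site at 12588251 to 12592159, with a fold of 13.6 and its summit 6 bp away. The starts of this peak in the lists differed by 17 bp, and its ends by 11 bp. The lists do not record whether reads could be placed in the gap, so unbound and unmeasured bases cannot be told apart there.

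**Figure D2:**
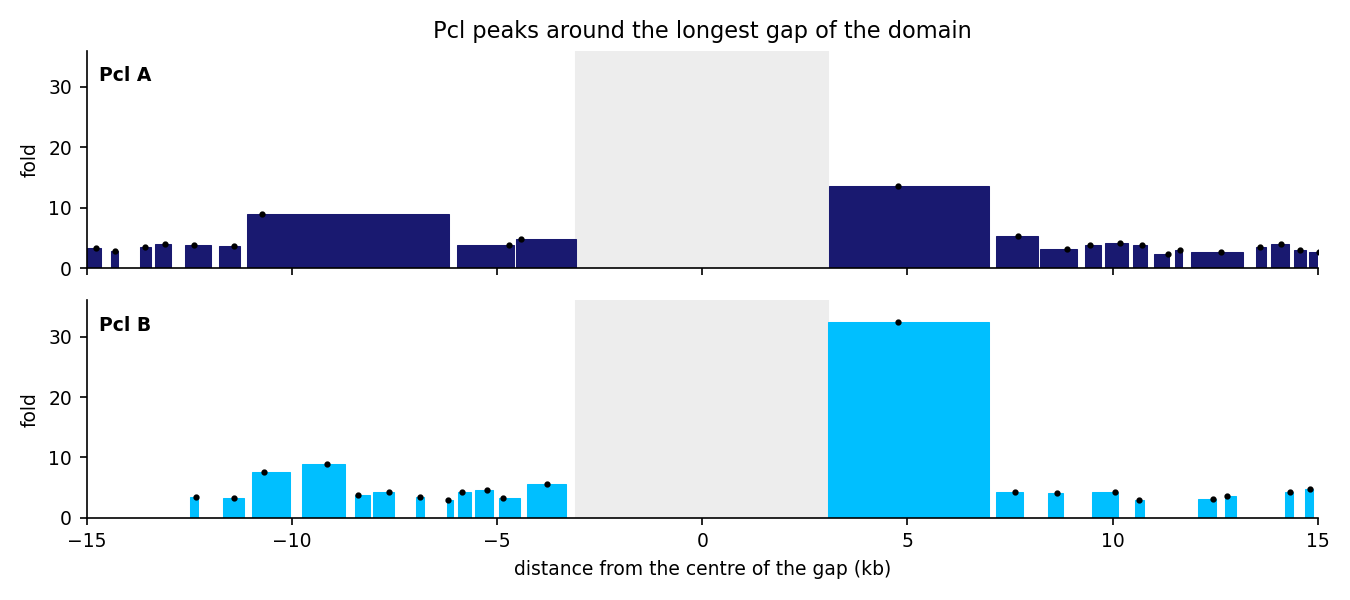
Pcl peaks within 15 kb of the centre of the 6137 bp gap (x axis, kb from its centre, with the gap shaded), drawn as bars with the authors' fold as height and summits as dots. The gap is empty in both lists, and the peak after it reaches 13.6 (Pcl A) and 32.4 (Pcl B), against 4.76 and 5.68 just before it.

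The other gaps common to both lists were short. The 4 next longest were 12482540 to 12484096 (1557 bp), 12611597 to 12613136 (1540 bp), 12613304 to 12614566 (1263 bp) and 12481159 to 12482167 (1009 bp). A pair of them flanked a Pcl A peak at 12613137 to 12613303, and the other pair lay within 4 kb of the start of the domain. All others were under 1 kb, and the median of the 186 gaps was 174.5 bp. Pcl B left 276 gaps with a median of 296.5 bp. Its longest after the central one were 12611597 to 12615948 (4352 bp), 12568504 to 12572688 (4185 bp), 12600042 to 12604118 (4077 bp) and 12803644 to 12806667 (3024 bp), and Pcl A peaks covered 20.5%, 56.7%, 58.5% and 71.7% of them. These 4 gaps of Pcl B were thus partly covered in Pcl A, in places by Pcl A peaks that reached in from called Pcl B sites beside the gap.

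The longest gap divided the domain into a first stretch of 101 kb and a second stretch of 224 kb, and the second was the more fully covered in both lists. Pcl A peaks covered 67.5% of the first and 89.6% of the second stretch. In Pcl B the shares were 31.9% and 63.5%. The gap was not itself the border between lower and higher cover. In bins of 10 kb from 12490001 to 12580000, before it, Pcl A covered 53.4% to 81.4% and Pcl B 19.3% to 48.4%. From 12590001 to 12630000, after it, the bins were covered to 45.7% to 81.7% and 19.2% to 50.5%. The next bin, from 12630001 to 12640000, was covered to 98.5% and 52.7%. Peaks with a fold over 10 were 3 of 108 Pcl A peaks in the first stretch and 15 of 98 in the longer second one. In Pcl B they were 5 of 84 and 20 of 193. The lists went different ways in peak number. Pcl A had 10.7 peaks per 10 kb in the first stretch and 4.37 in the second, while Pcl B had 8.30 and 8.60. The median Pcl A peak was 391 bp wide in the first and 589.5 bp in the second stretch, and the median Pcl B peak 257.5 bp and 374 bp.

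Coverage was highest toward the far end. In bins of 10 kb counted from the start of the window, Pcl A covered at least 90% of each bin from 12690001 to 12800000, a run of 110 kb. Over that run Pcl A peaks covered 97.9% with no gap longer than 221 bp, and Pcl B peaks covered 82.1% with no gap longer than 589 bp. The run held 18 Pcl A peaks with a median width of 2045.5 bp, and 94 Pcl B peaks with a median width of 470.5 bp. Of these, 7 in Pcl A and 13 in Pcl B exceeded a fold of 10. Among the 32 bins that lay wholly in the domain, coverage ranged from 37.9% to 100% with a median of 86.1% in Pcl A, and from 19.2% to 93.3% with a median of 49.5% in Pcl B. The lowest Pcl A bin was the one that holds the longest gap, at 12580001 to 12590000. The lowest Pcl B bin was 12600001 to 12610000, and the bin of the gap was covered to 33.1% in that list.

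**Figure D3:**
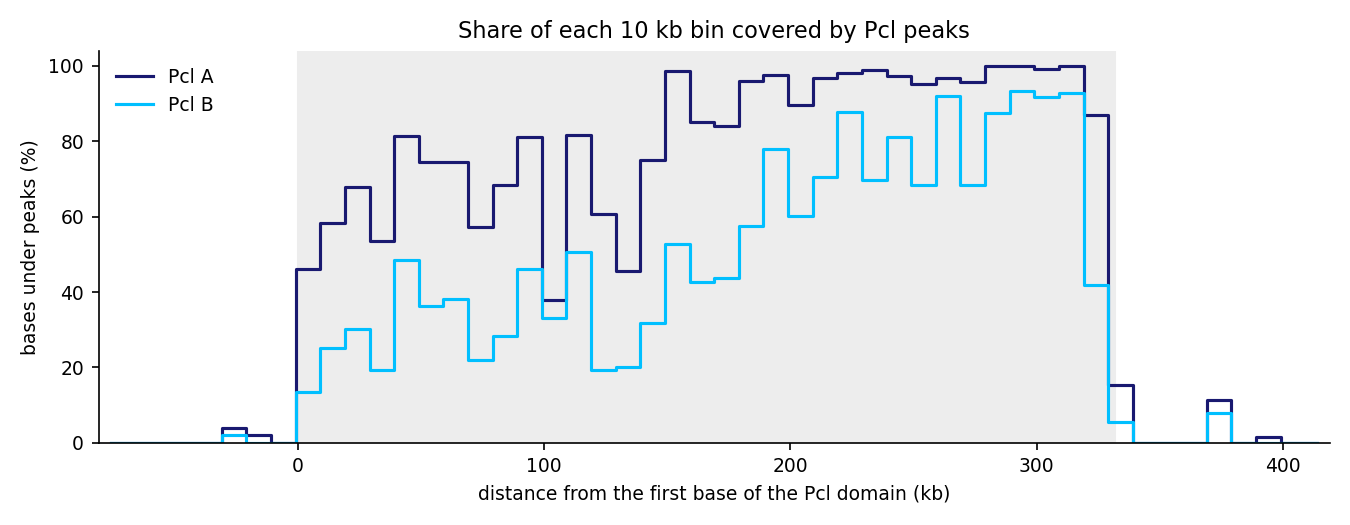
Share of each 10 kb bin of the window under Pcl peaks (y axis, percent) against distance from the first base of the Pcl domain (x axis, kb, with the domain shaded). Pcl A reaches at least 90% in 14 of the 32 bins inside the domain and Pcl B in 4. In both lists the dip next to 100 kb is the bin of the longest gap. It is the lowest of these bins in Pcl A, but Pcl B has lower ones.

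High coverage and a high summit did not always fall in the same bin. In the bin from 12750001 to 12760000 Pcl A peaks covered 95.6% and Pcl B peaks 68.3%, but the highest Pcl A summit there had a fold of 4.10 and the highest Pcl B summit one of 6.57. In the next bin, from 12760001 to 12770000, Pcl A covered 100% and had no summit, and the highest Pcl B fold was 9.89. That bin lay wholly under the Pcl A peak at 12758127 to 12789588, which had a fold of 14.1 at its summit, 12774493. Much of the bin before it lay under the Pcl A peak at 12742680 to 12756836, with a fold of 14.9 at its summit, 12746305. The lists give no fold away from a summit. Conversely, the bin from 12500001 to 12510000 was covered to 67.9% and 30.3% and held summits with folds of 9.19 and 14.3. Between the strong sites at 12541443 and 12589935 lay the longest run without a Pcl B peak over a fold of 10, 48.5 kb long. It held 41 Pcl A peaks with a highest fold of 9.04 and 34 Pcl B peaks with a highest fold of 8.90, and it was covered to 63.2% and 32.9%. After 12589935 the next Pcl B summit over a fold of 10 stood at 12637629, so a run of nearly the same length followed.

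Strong Pcl sites were at nearly the same bases in both libraries. In Pcl A 18 of the 210 peaks, or 8.57%, had a fold over 10, against 3.11% of that whole list, and in Pcl B 25 of 279, or 8.96%, against 5.90% of that list. All 18 Pcl A peaks had a Pcl B summit within 100 bp, at 2 to 56 bp, and in 16 cases that Pcl B peak exceeded a fold of 10 too. For all Pcl A peaks of the window the share with a Pcl B summit within 100 bp was 31.4%, against 23.6% of the whole list. The share among peaks over a fold of 10 in the whole list was not computed, so the closeness of strong summits is not shown to be particular to the window. Of the 25 Pcl B peaks, 18 had a Pcl A summit within 100 bp, and of all Pcl B peaks of the window 23.7% had one, against 31.2% of the whole list. The other 7 strong Pcl B peaks, with folds of 11.3 to 24.9, each had its summit inside a Pcl A peak of 6141 to 31462 bp, and the nearest Pcl A summit lay 2010 to 9805 bp away. Each list gives 1 summit per peak, so a wide Pcl A peak can hold several Pcl B summits and show 1. In Pcl B the strong summits were 1.80 to 48.5 kb apart, with a median of 10.5 kb.

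The 5 Pcl A peaks of highest fold all lay in the second stretch. The peak at 12706146 to 12713144 had a fold of 17.6, and Pcl B had its second highest fold of the window, 30.2, at a summit 9 bp away. At 12789673 to 12801433 the Pcl A fold was 17.0, with a Pcl B fold of 23.4 at 19 bp. The peak at 12713268 to 12728784 had a fold of 16.5 and its summit 2 bp from a Pcl B summit with a fold of 28.3. These sites were among the strongest of both lists, but the order of the folds was not the same. At 12735694 to 12740384 Pcl A had a fold of 16.2, with a Pcl B fold of 25.2 at 30 bp. At 12636354 to 12642494 Pcl A had a fold of 15.7, with a Pcl B fold of 20.1 at 51 bp. By rank in their whole lists these Pcl A peaks stood between 15 and 29.

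The highest sites of Pcl B were only in part those of Pcl A. Its 5 highest folds were 32.4 at the peak beside the longest gap, 30.2 at 12710367 to 12713138, 29.8 at 12771592 to 12776928, 28.4 at 12672475 to 12675024 and 28.3 at 12723655 to 12727652. In that list they ranked 2, 3, 4, 7 and 8. The Pcl A folds at the same summits, within 17 bp, were 13.6, 17.6, 14.1, 15.4 and 16.5. The first of these sites was thus the strongest of the window in Pcl B and not among the first 5 in Pcl A. Folds of separate lists rest on separate backgrounds and were not tested against each other.

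Merging the Pcl peaks of the window where they touched gave 105 regions that both lists called, 82 that Pcl A alone called and 4 that Pcl B alone called. The common regions had a median width of 1043 bp and made up 252 kb in all, the Pcl A regions 253.5 bp and 25.8 kb, and the Pcl B regions 181 bp and 0.740 kb. With 1 list in place of both, there were 210 regions without Pcl B and 279 without Pcl A, so the number of regions rests on how each list divides the domain. Regions of a single list were weak. The highest fold among the Pcl A regions was 4.14 and among the Pcl B regions 4.57. The 4 Pcl B regions had a median fold of 4.19, close to the 4.32 of the Pcl B peaks that Pcl A overlapped. The 3 longest regions of a single list all came from Pcl A, at 12803822 to 12804749 (928 bp, fold 3.85), 12515351 to 12516165 (815 bp, fold 2.79) and 12496802 to 12497589 (788 bp, fold 3.60).

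The common regions were ranked by fold in each list, and the 10 with the lowest average of both ranks all lay after the longest gap. The first was 12693897 to 12713144, a region of 19248 bp made of 2 Pcl A peaks and 15 Pcl B peaks, with folds of 17.6 and 30.2. Next came 12713268 to 12729736 (folds of 16.5 and 28.3), 12789673 to 12801433 (17.0 and 23.4), 12670155 to 12680777 (15.4 and 28.4) and 12735683 to 12740404 (16.2 and 25.2). The remaining ones were 12588234 to 12592159 beside the gap, 12758127 to 12789588, 12636354 to 12642494, 12740573 to 12757475 and 12680905 to 12684783. Pcl A folds in the 10 regions ran from 13.6 to 17.6 and Pcl B folds from 18.9 to 32.4, and Pcl B was the higher in all 10. The highest summits of the lists lay 2 to 51 bp apart in 9 of them. In the region 12740573 to 12757475 they were 3147 bp apart, because Pcl B had a higher summit (fold 22.9) at 12749452 than at 12746317 (fold 20.4), the site of the Pcl A summit.

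**Figure D4:**
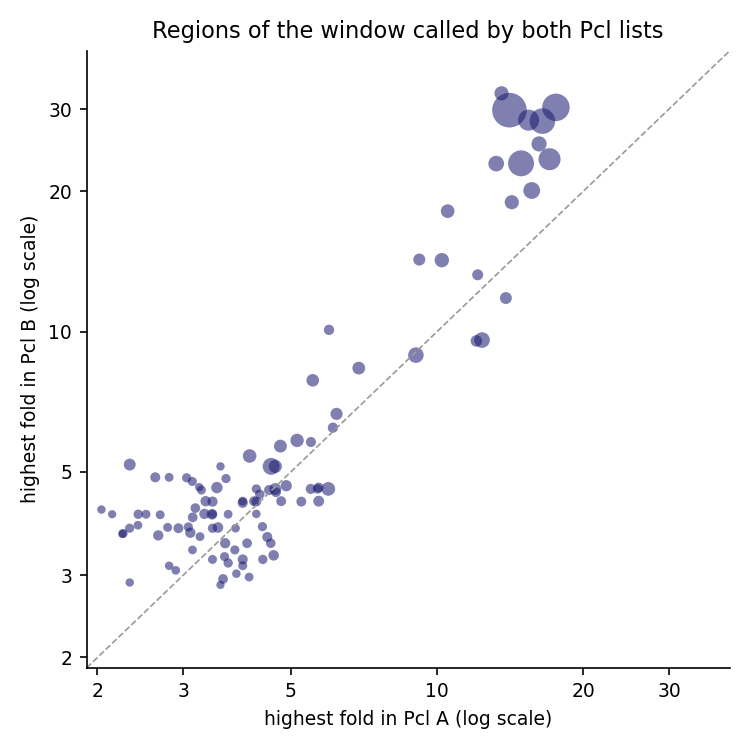
Highest authors' fold in Pcl A (x axis) and Pcl B (y axis), both linear ratios on log scales, for the 105 regions of the window that both lists called; the area of a point grows with region width and the dashed line marks equal folds. The 10 leading regions sit at the upper right, at 13.6 to 17.6 in Pcl A and 18.9 to 32.4 in Pcl B.

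Replicate overlap in the window was above that of the whole lists. Of the 279 Pcl B peaks, 275 were overlapped by a Pcl A peak by at least 1 bp, or 98.6% (Wilson 95% interval 96.4 to 99.4%), against 86.6% of the whole list. Of the 210 Pcl A peaks 128, or 61.0% (54.2 to 67.3%), were overlapped by a Pcl B peak, against 42.6% of the whole list. The intervals cover counting error only, and neighbouring peaks are not independent. The wide cover of Pcl A in the window makes an overlap easier to meet there, and its part in these shares was not tested. The 82 Pcl A peaks without a Pcl B peak had a median fold of 2.86 and a median width of 253.5 bp, against 3.96 and 762 bp for the others. In bases, 95.7% of the Pcl B cover lay inside Pcl A peaks and 61.9% of the Pcl A cover inside Pcl B peaks, and on the rest of the main arms these shares were 87.4% and 44.1%. With 1 input library per protein the Pcl lists may share a control, which the sources used here do not state.

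Pcl peaks of the window were wider than those elsewhere in both lists. In Pcl A the median width was 490 bp in the window and 320 bp in the rest of the list, and in Pcl B 320 bp and 267 bp. Peaks wider than 1000 bp made up 50 of 210 in Pcl A, or 23.8%, against 14.6% of the whole list, and 42 of 279 in Pcl B, or 15.1%, against 8.91%. The median fold differed less, at 3.33 in the window and 3.08 in the rest of Pcl A, and at 4.32 and 4.06 in Pcl B. Most members were therefore of ordinary strength for their list, with a minority of strong sites.

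**Figure D5:**
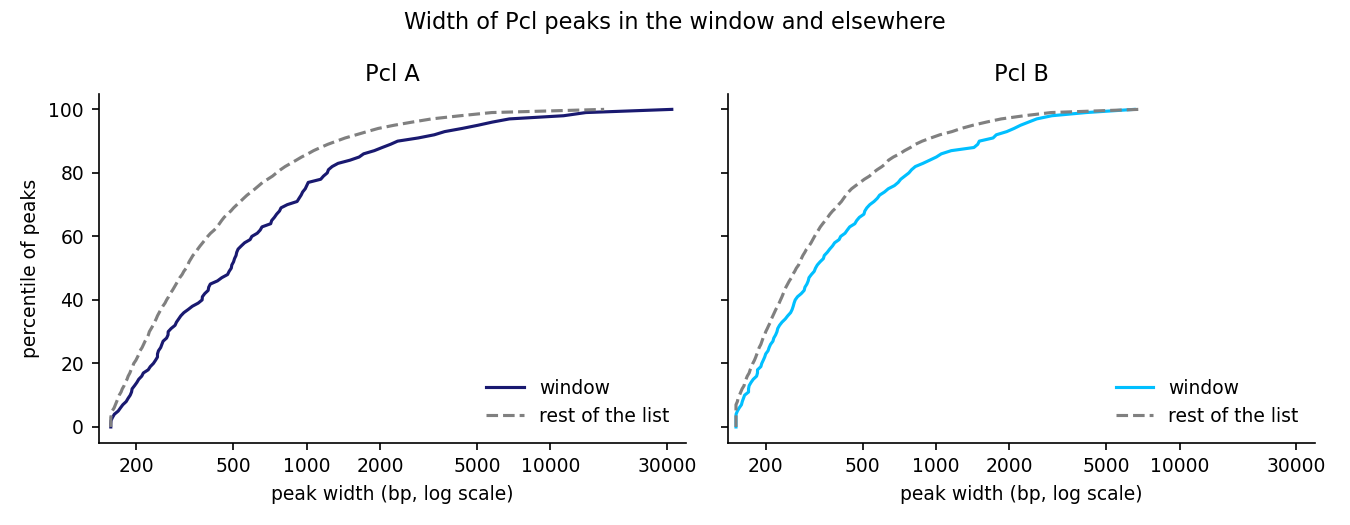
Percentile of peaks (y axis) against peak width (x axis, bp, log scale) for the Pcl peaks of the window (solid) and the rest of each Pcl list (dashed). The lines meet at the narrowest few percent. Above that the solid lines run to the right of the dashed ones, with medians of 490 against 320 bp in Pcl A and 320 against 267 bp in Pcl B. Only at the widest Pcl B peak is the order reversed, at 6502 bp in the window and 6794 bp elsewhere.

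The widest peaks showed how the lists divided the same ground. In Pcl A the widest peak of the window, 12758127 to 12789588, measured 31462 bp and was the widest of that whole list. Pcl B called 19 peaks inside it, which covered 91.3% of it. The next widest Pcl A peaks were 15517 bp (12713268 to 12728784, with 18 Pcl B peaks), 14157 bp (12742680 to 12756836, with 14), 12056 bp (12693897 to 12705952, with 12) and 11761 bp (12789673 to 12801433, with 7). Of the 10 widest peaks of the whole Pcl A list, 5 lay in the window. For Pcl B, 2 of the 10 widest did, and the widest of the window ranked 2 in that list. In all, 59 Pcl A peaks of the window met at least 2 Pcl B peaks, and 23 Pcl B peaks met at least 2 Pcl A peaks. The widest Pcl B peaks were 6502 bp (12793039 to 12799540), 5337 bp (12771592 to 12776928), 4588 bp (12743169 to 12747756), 3998 bp (12723655 to 12727652) and 3915 bp (12588234 to 12592148). Each of these 5 met 1 Pcl A peak, which covered at least 99.6% of it, and had a fold of 20.4 or more.

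Jarid2 had 6 peaks in the window, at 4 places. Only 1 place lay deep inside the Pcl domain. Jarid2 A called it at 12574465 to 12574684 with a fold of 2.20 and Jarid2 B at 12574424 to 12574678 with a fold of 2.53, with summits at 12574662 and 12574669. These folds were low for their lists, ranking 1789 of 1916 and 788 of 1055. A Pcl A peak with a fold of 9.04 and a Pcl B peak with a fold of 7.66 covered the place, and their summits lay 233 and 187 bp from the Jarid2 A summit. The second place was the edge of the domain. Jarid2 A alone called a peak at 12481205 to 12481403, with a fold of 3.02, 46 bp after the first Pcl A peak of the domain and 4863 bp before the first Pcl B peak.

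The third place lay at the other edge. Jarid2 A alone called 12813293 to 12813457, with a fold of 2.58, 661 bp past the last Pcl A peak of the domain. The fourth place was the strongest for Jarid2 and lay 67.0 kb past the end of the domain. Jarid2 A called it at 12879623 to 12880060 with a fold of 4.87 and Jarid2 B at 12879650 to 12880008 with a fold of 4.04, ranking 98 and 160 in their lists. It met the weak last Pcl A peak, which had a fold of 2.04 and its summit 50 bp from that of Jarid2 A, and the nearest Pcl B peak lay 23535 bp away. None of the 18 Pcl A and 25 Pcl B peaks with a fold over 10 met a Jarid2 peak. The share of such strong peaks that met Jarid2 in the whole lists was not computed, so this count is a description only. In all, 2 of 210 Pcl A peaks of the window met a peak of either Jarid2 list, or 0.952%, against 5.63% of the whole list, and 1 of 279 Pcl B peaks did, or 0.358%, against 7.89%.

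Both Jarid2 B peaks were overlapped by Jarid2 A, against 87.8% of that whole list, and 2 of the 4 Jarid2 A peaks by Jarid2 B, against 49.6%. A Pcl peak of either list overlapped 2 of 4 Jarid2 A peaks and both Jarid2 B peaks, against 22.2% and 22.6% of the whole lists, counts too small to set apart from those shares. Inside the domain there were 2 Jarid2 A peaks and 1 Jarid2 B peak. An equal length of the main arms held 5.26 and 2.92 on average. Both counts lay below that average, and the difference was not tested.

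Set beside windows of the same length and the same 400 kb offset on the main arms, the window ranked first of 228 in covered length in both Pcl lists, second in number of Pcl A peaks and first in number of Pcl B peaks. The median window had 6.5 Pcl A and 4 Pcl B peaks. For Jarid2 A it ranked 168 by number of peaks and for Jarid2 B 166. The closest other window was 3R from 2400001 to 2900000, where Pcl A had 274 peaks over 233 kb and Pcl B 271 peaks over 125 kb. There the widest peaks were 12439 bp (Pcl A) and 6141 bp (Pcl B), and the highest folds were 18.7 and 28.8. The third, 3R from 16900001 to 17400000, was covered over 119 kb and 67.4 kb, with widest peaks of 7474 and 3354 bp and highest folds of 16.4 and 21.5. In the bithorax complex window the same values were 31462 and 6502 bp and folds of 17.6 and 32.4, so it had the widest peak of these 3 windows in both lists and the highest fold of them in Pcl B.

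With peaks joined across up to 10 kb in the same way, the main arms held 653 chains of Pcl peaks. Their median length was 0.454 kb, and 12 were at least 100 kb long. The domain of 332 kb was the second longest, after one of 351 kb on 3R from 2534679 to 2885426. Peaks of either list covered 83.5% of the former and 65.7% of the latter, and from 46.3% to 53.3% of the next 3 chains by length. These ranks describe the lists and were not tested.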

How the data were processed

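Embryos aged 12 to 24 h were fixed with 3% formaldehyde for 30 min, per the labels' protocols. The submitters' processing notes name build dm3, Trimmomatic 0.36, Bowtie 1.2.2, deepTools 3.0.2 and MACS2 2.1.1 without roles, and the control used is not given in the sources used here. The authors deposited 1 narrowPeak list of 10 columns per purified library, with replicates not pooled. The deposited fold enrichment is a linear ratio, the −log10 p and −log10 q are those of the authors' caller, and the deposited score is 10 times −log10 q cut to a whole number. The 2 inputs had no list and were not analysed here.

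Groups came from the sample titles. Members were taken by summit, starts were printed 1-based, and coverage, gaps and overlaps were computed per list and over merged peaks. A domain joined peaks across up to 10 kb. Named in the text were every Jarid2 peak, the end peaks, the 5 highest folds and 5 widest peaks per Pcl list, the 10 leading common regions, the 5 longest gaps, the 3 longest regions of 1 list and the 2 windows most like this one. Other bins, sites and runs were chosen after their values were seen. The window and these lists were chosen with earlier results of these data known. No test runs across peaks. The interval functions were tested on simulated data and equalled a base-by-base count in all 200 simulated pairs of lists. Alternatives were a stricter q (at or below 1e-05), equal list sizes (1055 peaks by p), other join and gap lengths, other overlap rules, and leaving out each Pcl library. No genome of the lists' build was used here. Calculations used Python 3.11.15, numpy 2.4.6, pandas 2.3.3, scipy 1.17.1 and matplotlib 3.10.9.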

Additional observations from a re-analysis of the deposited data

How the results depend on the processing

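Of 50 alternatives, 22 stayed within their limit (1.5 times for a count, 1 SD between replicates or the 95% interval for other values) and 28 moved beyond it. None had a test. A stricter q and equal sizes remove peaks by construction, and for the other moves the cause was not tested. With q at or below 1e-05 the window held 2 Jarid2 A, 1 Jarid2 B, 134 Pcl A and 157 Pcl B peaks, they covered 0.603 kb in Jarid2 A and 0.359 kb in Jarid2 B, the domain ended at 12810729, it had 6 gaps of at least 2 kb, 51.5% of Pcl A and 93.6% of Pcl B peaks were overlapped by the other list, and 59 regions were common. The longest gap was again 6137 bp, an alternative added after seeing the data. With equal list sizes there were 2 Jarid2 A, 58 Pcl A and 83 Pcl B peaks, and cover was 0.603 kb for Jarid2 A, 203 kb for Pcl A and 112 kb for Pcl B (176 kb with the uncut Pcl B list). Joining across 5 kb split the domain at the longest gap, so that it began at 12588234, and joining across 20 kb moved its start to 12458365. There were 5 gaps of at least 1 kb. Requiring 50% of the shorter peak gave 93.2% for Pcl B, and summits within 500 bp gave 69.0% for Pcl A and 52.0% for Pcl B. Merging across 1 kb left 5 common regions. Leaving out each Pcl library gave starts from 12480919 to 12486267, ends from 12810709 to 12812631, 1 to 12 gaps and 210 to 279 regions. The Jaccard index (bases common to a Jarid2 and a Pcl list over bases in either) averaged 0.128% ± 0.0112 (SD) over all 4 pairs of lists in the window. It was 0.133% with the letter as a replicate block and 0.124% with crossed letters. Unknown read depth limits all counts, since a weak site may go uncalled in a shallow library.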
